A study of Mus musculus with 12 samples.

Results

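Sox1, Zbtb20, Bcl6, Etv5 and Hes1 are transcription factors of neural progenitor and cortical cell-type identity. They were chosen by name and make up 5 of the 35129 gene entries of the count table, of which 16468 held a count in at least 1 library. The study asked how chronic nicotine changes gene expression in cortical interneurons and pyramidal neurons, and single neurons were collected by hand under fluorescence, lysed in batches of 10 cells and sequenced, with each library made from the cells of 1 mouse. Of 12 labelled libraries in 4 groups, 10 were used; the first replicates of Thy1 and of Sst+Nic were not analysed here.

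The Sst and Sst+Nic groups came from GIN mice (FVB background), in which a transgene marks a subgroup of somatostatin (Sst) interneurons with enhanced green fluorescent protein. The Thy1 and Thy1+Nic groups came from YFPH mice (B6 background), in which the Thy1 promoter labels pyramidal cells of layer V with yellow fluorescent protein. All mice were males of 20 g and 5 to 7 weeks and carried a subcutaneous osmotic mini pump for 14 days, filled with saline (Sst, Thy1) or with nicotine hydrogen tartrate at 48 mg/kg/d (Sst+Nic, Thy1+Nic). Sst had 3 libraries, Sst+Nic 2, Thy1 2 and Thy1+Nic 3. Cell type, mouse line, strain and fluorescent protein changed together, so that they cannot be told apart in any comparison of Sst-neurons with Thy1-neurons, and p-values measure only the spread between these few mice.

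SOX1 is a high-mobility-group factor of the SOXB1 class that keeps neural progenitors undifferentiated and that is also used by telencephalic interneurons. HES1 is the basic helix-loop-helix repressor switched on by Notch receptors through the DNA-binding partner RBPJ, and it holds back proneural genes. BCL6 is a zinc-finger repressor that promotes cortical neurogenesis by silencing Notch target genes. ETV5 is an ETS-domain activator induced by fibroblast growth factor and MAP kinase signalling, and ZBTB20 is a BTB zinc-finger repressor known from hippocampal and upper-layer neuron specification and from astrocytes.

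Sox1 lies on chromosome 8 (12395519 to 12399555, plus strand). The other factors lie on chromosome 16, namely Etv5 (22381313 to 22439570, minus strand), Bcl6 (23965050 to 23988866, minus strand), Hes1 (30065357 to 30067796, plus strand) and Zbtb20 (42875689 to 43634392, plus strand), in RefSeq positions on GRCm38. RefSeq promoter windows on GRCm38.p6 were found for Sox1, Etv5, Bcl6 and Zbtb20. The 250 bases before the RefSeq start are shown for the 4 windows that held no GENCODE exon, 2 of Bcl6, 1 of Etv5 and 1 of Zbtb20. They are shown since these genes moved in opposite directions between the cell types. The second Bcl6 window, the Etv5 window shown and the Zbtb20 window lie inside their genes. No GENCODE transcript of the 5 factors held the bases directly after the start of the second Bcl6 window or of the Etv5 window shown. Capitals mark every match, on either strand, to the RBPJ core TGGGAA, the N box CACNAG and the class C site CACGNG bound by HES factors, the ETS core CCGGAA, the SOX core ACAAT, and TTCNNNGAA, the half-site pair of STAT factors that BCL6 also binds.
Bcl6, chr16:23988853-23989102, minus strand: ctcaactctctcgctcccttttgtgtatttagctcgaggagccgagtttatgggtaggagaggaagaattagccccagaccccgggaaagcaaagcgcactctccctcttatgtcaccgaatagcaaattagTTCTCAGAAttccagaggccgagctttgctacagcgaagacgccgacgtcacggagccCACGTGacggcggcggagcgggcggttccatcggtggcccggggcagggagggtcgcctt
Bcl6, chr16:23981284-23981533, minus strand: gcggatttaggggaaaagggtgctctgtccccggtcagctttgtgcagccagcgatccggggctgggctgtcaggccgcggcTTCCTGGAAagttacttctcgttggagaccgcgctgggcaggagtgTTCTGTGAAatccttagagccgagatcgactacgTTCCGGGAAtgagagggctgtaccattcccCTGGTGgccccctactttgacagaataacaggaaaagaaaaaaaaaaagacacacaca
Etv5, chr16:22438369-22438618, minus strand: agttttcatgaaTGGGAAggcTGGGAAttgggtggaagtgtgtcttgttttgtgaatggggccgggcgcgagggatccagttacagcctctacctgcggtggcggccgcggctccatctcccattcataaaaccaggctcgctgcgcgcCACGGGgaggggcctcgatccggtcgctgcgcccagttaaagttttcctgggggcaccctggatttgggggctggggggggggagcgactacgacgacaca
Zbtb20, chr16:43247034-43247283, plus strand: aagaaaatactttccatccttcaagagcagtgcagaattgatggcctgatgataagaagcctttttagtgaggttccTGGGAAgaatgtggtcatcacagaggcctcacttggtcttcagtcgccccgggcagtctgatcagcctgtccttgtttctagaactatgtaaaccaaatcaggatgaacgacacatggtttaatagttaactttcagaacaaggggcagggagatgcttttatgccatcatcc

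Both Bcl6 windows held TTCNNNGAA, 1 match in the first and 3 in the second, against 7.02% of all 32851 RefSeq windows with at least 1 match and 0.0274% with at least 3. In the second Bcl6 window, whose start had no such GENCODE transcript, 1 of these matches overlapped its ETS core match. The Etv5 window shown held 2 matches to the RBPJ core and the Zbtb20 window 1, and 21.6% of all windows held one. Class C matches stood in the first Bcl6 window and in the Etv5 window shown (23.5% of all windows), an N box in the second Bcl6 window (36.7%), and an ETS core in the second Bcl6 window (12.0%). The other Etv5 window, directly before the gene and not shown, held no match to any of these motifs. No member window held the SOX core, which 27.7% of all windows did. The matches describe letters only.

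Levels are given as CPM, the fragment count of an entry divided by the total of its library and multiplied by 1e6. The library totals lay between 2915738 and 4878326 fragments. A library without a count of a gene could therefore hide up to 3 counts, or 0.615 to 1.03 CPM, from counting error alone. Entries in 4 stretches of chromosomes 7, 8, 16 and 19 were well filled, with at least 100 fragments summed over the libraries in 67.2% of 680 mRNA entries against 22.4% of 21910 elsewhere, and all 5 factors lie in these stretches. Other genes are named only from them. Library totals, and so CPM, and the shares of all entries tested also rest on the entries elsewhere, few of which matched the group values accompanying the study. The entry of Zbtb20 holds only part of the fragments that the group values accompanying the study imply, so that its levels here are incomplete, and whether the missing part is the same in each library was not tested. In the Sst group the entries of Sox1, Bcl6 and Etv5 held 100%, 100% and 99.9% of those values, and that of Zbtb20 45.3%. Hes1 had no such value to be compared with. No factor was compared in Sst+Nic, Thy1 or Thy1+Nic. Whether the entries are complete there, also where a library held no count, was not tested.

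Sst itself, the neuropeptide that names the interneurons, had 61221, 126088 and 91130 CPM in the Sst libraries and 53779 and 64640 CPM in the Sst+Nic libraries. It had 1.15 CPM in Thy1 replicate 2 but 3795 CPM in Thy1 replicate 3, and 49.2, 2.36 and 1.77 CPM in the Thy1+Nic libraries. Thy1 replicate 3 therefore held Sst transcripts well above the other Thy1-neuron libraries, and the factors' calls that changed without it are given beside the results. Ctxn1, the 1 gene in these stretches of the 11 listed for layer V pyramidal neurons, ran from 37.2 to 249 CPM in Sst-neurons and from 544 to 1898 CPM in Thy1-neurons. That list was written with earlier results of these data known, so that Ctxn1 is no test of the cell type. The interneuron marker Chodl was at 0 in every Sst and Sst+Nic library.

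Sox1 marked the Sst-neurons. Its level was 195, 87.5 and 149 CPM in Sst replicates 1, 2 and 3 and 214 and 156 CPM in Sst+Nic replicates 2 and 3. It had 0 counts in both Thy1 libraries and in Thy1+Nic replicates 2 and 3, and 10 counts, or 2.88 CPM (95% Wilson interval 1.56 to 5.30), in Thy1+Nic replicate 1. Every Sst-neuron library stood above every Thy1-neuron library. The group means were 185 ± 41.0 CPM in Sst+Nic (SD, n = 2), 144 ± 53.8 in Sst (n = 3) and 0.960 ± 1.66 in Thy1+Nic (n = 3), with Thy1 (n = 2) at 0, and neither the former 2 nor the latter 2 groups differed beyond their spread.

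Bcl6 showed the reverse pattern. It was at 8.70, 5.87 and 5.13 CPM in the Sst libraries and at 2.06 and 4.71 CPM in the Sst+Nic libraries, where the lowest value rested on 6 counts (95% Wilson interval 0.943 to 4.49 CPM). In Thy1 replicates 2 and 3 it was at 175 and 103 CPM, and in the Thy1+Nic libraries at 68.2, 105 and 83.7 CPM. The cell types did not overlap. The order of the group means was Thy1 (139 ± 50.8 CPM), Thy1+Nic (85.5 ± 18.3), Sst (6.57 ± 1.89) and Sst+Nic (3.39 ± 1.88), of which Thy1 and Thy1+Nic overlapped.

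Etv5 was likewise higher in Thy1-neurons. It was at 406 and 447 CPM in Thy1 and at 161, 415 and 353 CPM in Thy1+Nic, against 147, 81.1 and 72.1 CPM in Sst and 92.3 and 123 CPM in Sst+Nic. Thy1+Nic replicate 1 came close to the highest Sst library, although the cell types did not overlap. The means were 427 ± 28.4 CPM in Thy1, 310 ± 133 in Thy1+Nic, 108 ± 21.6 in Sst+Nic and 100.04 ± 40.9 in Sst, and groups of the same cell type overlapped.

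Hes1 was low in Sst-neurons, at 4.72, 13.5 and 21.9 CPM in Sst and at 2.06 and 6.97 CPM in Sst+Nic. It was at 30.1 and 30.5 CPM in Thy1 and at 72.0, 50.1 and 51.3 CPM in Thy1+Nic. The 4 groups ranked Thy1+Nic (57.8 ± 12.3 CPM), Thy1 (30.3 ± 0.280), Sst (13.4 ± 8.57) and Sst+Nic (4.51 ± 3.47), and the Sst and Sst+Nic libraries overlapped.

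Zbtb20 was at 82.0, 176 and 121 CPM in Sst and at 71.3 and 40.0 CPM in Sst+Nic. It had 0 counts in Thy1 replicate 2 and 7.69 CPM in Thy1 replicate 3, the library with the raised Sst, and 18.1, 5.91 and 15.6 CPM in Thy1+Nic. The means were 127 ± 47.3 CPM in Sst, 55.7 ± 22.2 in Sst+Nic, 13.2 ± 6.46 in Thy1+Nic and 3.84 ± 5.44 in Thy1, and the Thy1 and Thy1+Nic libraries overlapped.

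**Figure D1:**
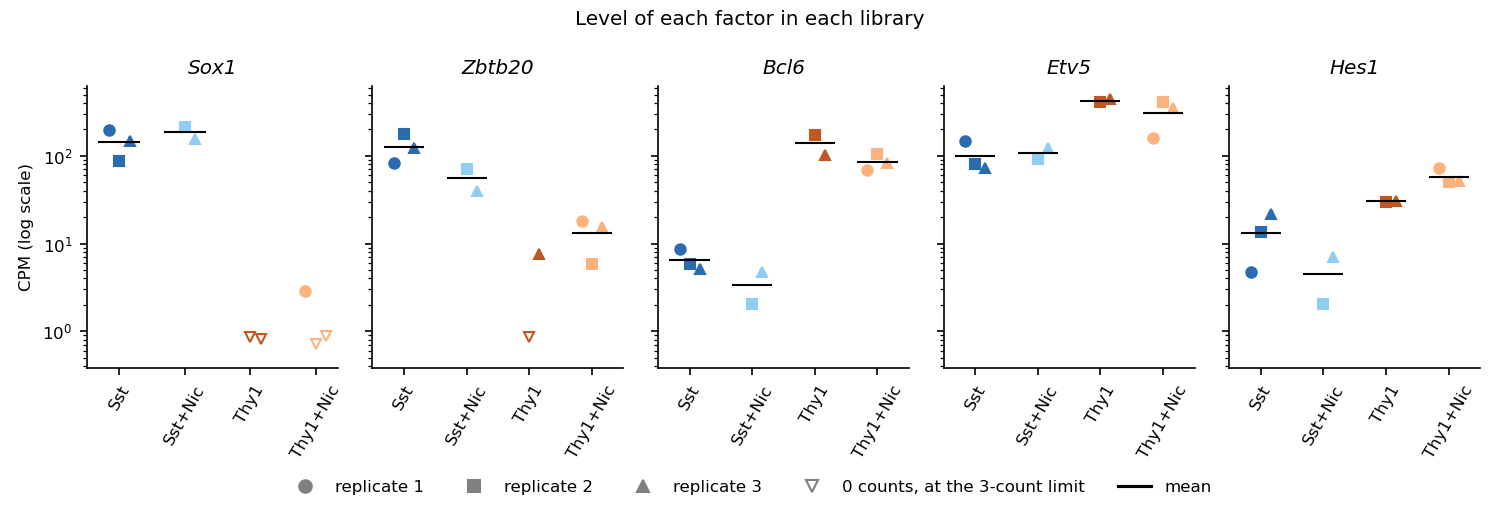
CPM on a log scale of each factor in each of the 10 libraries by group; marker shape gives the replicate, black bars the means of groups with counts in every library and open triangles libraries with 0 counts, drawn at the limit of 3 counts. Sox1 and Zbtb20 stand higher in the Sst-neuron libraries, and Bcl6, Etv5 and Hes1 in the Thy1-neuron libraries.

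Levels of different genes were compared only per kilobase of annotated exon, and Zbtb20 was left out of this because its entry is incomplete. In Sst, Sox1 (29.7 ± 11.1 CPM per kb) and Etv5 (24.4 ± 9.96) were within their spread of each other, Hes1 (6.56 ± 4.21) was lower and Bcl6 (0.980 ± 0.282) the lowest of the 4. In Thy1, Etv5 led at 104 ± 6.93 CPM per kb, ahead of Bcl6 (20.8 ± 7.58) and Hes1 (14.9 ± 0.138), which differed by less than the spread of Bcl6. Hes1 stood at 28.4 ± 6.05 CPM per kb and Bcl6 at 12.8 ± 2.73 in Thy1+Nic, whereas their order in Thy1 was not resolved. The entry of Hes1 could not be checked for completeness, which limits its place in each of these orders.

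Sst-neurons and Thy1-neurons were first compared under saline, to ask which genes distinguish them without nicotine. The edgeR quasi-likelihood test was run on all entries that passed a filter on low counts, and a differentially expressed gene (DEG, or called entry) had to reach an adjusted p (Benjamini-Hochberg) under 0.05 and a log2 fold change beyond 1 in either direction. Sox1, Bcl6 and Etv5 were called, 3 of the 5 factors, where 1.72% of 6350 entries tested and 4.29% of 489 in the well-filled stretches were called. Each of the 5 factors had groups without overlap, as did 35.3% of all entries tested. All 5 factors had passed the filter by themselves, but Sox1, at 0 in both Thy1 libraries, and Zbtb20, at 0 in 1 of them, had passed it through the Sst libraries, so that the count of 3 is a description.

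Sox1 was at least 171-fold higher in Sst than in Thy1, taking 3 counts per Thy1 library as the limit (adjusted p = 0.00883). Its fitted log2 fold change depends on the offset given to libraries with 0 counts so that only its sign is read. Bcl6 was lower in Sst by a log2 fold change of -4.56 ± 0.46 (SE, adjusted p = 0.00883), 21.2-fold in the group means, and Etv5 by -2.30 ± 0.32 (adjusted p = 0.0221), 4.26-fold in the means. Zbtb20 was 32.9-fold higher in the Sst mean, with a log2 fold change of 4.84 ± 1.36 that did not pass the threshold (adjusted p = 0.149); it passed with DESeq2 (0.000806), with no filter (9.23e-11) and when entries needed 10 counts in any library (0.0191). Hes1 had a log2 fold change of -1.31 ± 0.84 (adjusted p = 0.537). The folds of means depend on the total used. With the fragments in the well-filled stretches as the total, and again multiplied by 1e6, the Sst and Thy1 means were 392 and 2932 for Etv5, 25.4 and 942 for Bcl6 and 457 and 27.6 for Zbtb20, whereas the edgeR test on the well-filled entries alone gave log2 fold changes of -2.10, -4.40 and 5.05 and called Etv5 and Bcl6.

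The call of Sox1 held with each library left out. Without Thy1 replicate 2, Bcl6 missed the threshold (adjusted p = 0.0538). Etv5 was called in 1 of the 5 fits that left out a library, and missed without Sst replicate 2 (adjusted p = 0.1005), Sst replicate 3 (0.0658), Thy1 replicate 2 (0.0597) or Thy1 replicate 3 (0.101), as it did with library totals in place of TMM factors (0.0605). Without Thy1 replicate 3, the library with raised Sst, Zbtb20 had 0 counts in the remaining Thy1 library and was called (adjusted p = 0.0251), with a log2 fold change of 11.95 whose size is set by that 0, and Sox1 and Bcl6 were called (0.0203 and 0.0251). With 1 Thy1 library left, the spread in this fit came from the Sst libraries alone, and the lone library was assumed to vary like them. Hes1 had a log2 fold change of -1.22 ± 1.22 without that library. Without Thy1 replicate 2, the Thy1 library at 0, Zbtb20 had one of 3.78 ± 0.84 (adjusted p = 0.146).

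After nicotine, 1 of the 5 factors was called between the cell types, against 0.507% of 6509 entries tested and 1.79% of 504 in the well-filled stretches. Bcl6 was lower in Sst+Nic than in Thy1+Nic by a log2 fold change of -5.08 ± 0.69 (adjusted p = 0.0326), 25.3-fold in the means. Its call was lost without Sst+Nic replicate 2 (adjusted p = 0.0772) or Thy1+Nic replicate 1 (0.120), 2 (0.0781) or 3 (0.0679), and, with all libraries, under voom with quality weights (0.0811) and with the replicate number as a block (0.0953). Without Sst+Nic replicate 3, Bcl6 (-6.01, adjusted p = 0.0145), Hes1 (-5.44, adjusted p = 0.0304) and Sox1 (7.11, adjusted p = 0.0206) were called, the 1 Sst+Nic library left being assumed to vary like the Thy1+Nic libraries. With all libraries, Sox1 (log2 fold change 7.06 ± 1.27, adjusted p = 0.0716), whose size rested on the 10 counts of Thy1+Nic replicate 1 and became 12.23 without that library (adjusted p = 0.0974), Hes1 (-4.08 ± 0.78, adjusted p = 0.0809), Etv5 (-2.01 ± 0.51, adjusted p = 0.138) and Zbtb20 (1.56 ± 0.67, adjusted p = 0.317) did not pass the threshold. Of 10 alternatives with all libraries, 5 called Sox1, 3 Hes1, 3 Etv5 and 0 Zbtb20. All 5 factors again had libraries that did not overlap, as did 39% of the entries tested.

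With both treatments pooled, a comparison chosen after the data had been seen, 5 Sst-neuron libraries were set against 5 Thy1-neuron libraries in 1 fit with the 4 groups as terms. All 5 factors were called, where 4.95% of 8242 entries and 11.2% of 535 in the well-filled stretches were called, and each of the 5 had cell types whose libraries stood apart without overlap, as did 8.46% of entries. Sox1, at 0 in 4 of the 5 Thy1-neuron libraries, had again passed the filter through the Sst-neuron libraries, so that the count of 5 is a description. Sox1 had a log2 fold change of 9.52 ± 1.08 (adjusted p = 0.000453), whose size again depends on the libraries with 0 counts, and Zbtb20 one of 3.19 ± 0.75 (adjusted p = 0.0282), both higher in Sst-neurons. Bcl6 was at -4.82 ± 0.43 (adjusted p = 7.47e-05), Hes1 at -2.70 ± 0.57 (adjusted p = 0.0156) and Etv5 at -2.16 ± 0.32 (adjusted p = 0.00181), all lower in Sst-neurons. Other measures of the libraries also split by cell type without overlap. Mitochondrially encoded genes took 16.3 to 22.1% of the fragments in Sst-neurons and 31.4 to 38.5% in Thy1-neurons, and entries in the well-filled stretches took 22.5 to 31.1% and 13.2 to 15.3%. With the mitochondrial genes left out, the factors called under saline and after nicotine were the same; their part in the pooled comparison was not tested.

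**Figure D2:**
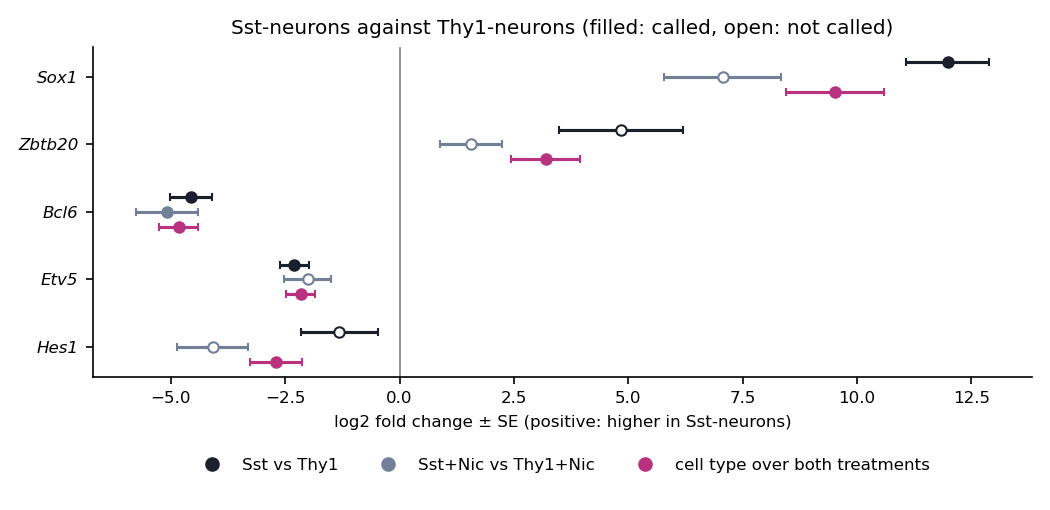
log2 fold change with its standard error of each factor between Sst-neurons and Thy1-neurons (positive values are higher in Sst-neurons), under saline, after nicotine and over both treatments; filled points were called and open points were not. The sign is the same in the 3 comparisons for each factor, the pooled comparison shares its libraries with the other 2, and the size of the Sox1 values depends on libraries with 0 counts.

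Sox1, Bcl6 and Etv5 kept this call with each of the 10 libraries left out in turn. Hes1 lost it without Sst+Nic replicate 2 (adjusted p = 0.0588), and Zbtb20 lost it without Sst replicate 2 (0.0682), Thy1+Nic replicate 2 (0.0640) or Thy1+Nic replicate 3 (0.0520). Without Thy1 replicate 3, the log2 fold change of Zbtb20 went from 3.19 to 6.73 (adjusted p = 2.03e-05), since the remaining Thy1 library had 0 counts. Without Thy1+Nic replicate 1, the one Thy1-neuron library with counts of Sox1, that of Sox1 went to 12.09 (adjusted p = 7.81e-05), a value set by the libraries at 0.

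**Figure D3:**
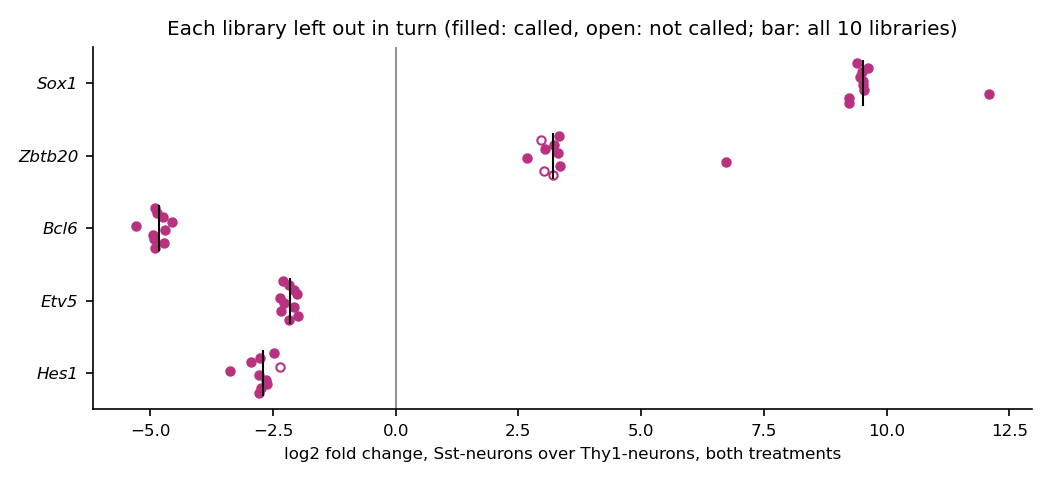
log2 fold change of each factor between Sst-neurons and Thy1-neurons over both treatments (horizontal axis), with each of the 10 libraries left out in turn (points, filled where called) and with all libraries (black bars). No factor changes sign, and the open points are the 3 for Zbtb20 and the 1 for Hes1.

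Glial, immune and vascular markers in the well-filled stretches were read beside these differences. Over both treatments Adamts5 and Mylk alone were called among them, where 11.2% of 535 well-filled entries were. The number called is therefore no result about these markers. The astrocyte markers in the well-filled stretches, 2 of 10, summed to between 0 and 48.4 CPM in Sst-neurons and to between 0 and 8.93 CPM in Thy1-neurons, all but 1 count of them from Slc15a2, while Atp13a4 had 1 count in Sst+Nic replicate 2 and 0 elsewhere. Slc15a2 was not called over both treatments (5.18 ± 1.74, adjusted p = 0.115) or under saline (adjusted p = 0.271). Adamts5, 1 of the 2 oligodendrocyte and precursor markers (of 10) in the stretches, was higher in Sst-neurons over both treatments (log2 fold change 4.45 ± 0.86, adjusted p = 0.00951), and the list summed to 62.3 to 108 CPM in Sst-neurons and to 0.589 to 23.6 CPM in Thy1-neurons. The other, Igsf11, was not called (-0.85 ± 1.32, adjusted p = 0.789). Zbtb20 and Sox1 have the same direction as Adamts5, and the part of glial cells in their levels was not tested. The microglial list (3 of 10 in the stretches) summed to 0 to 68.6 CPM in Sst-neurons and 0 to 16.7 in Thy1-neurons, and the endothelial and mural list (8 of 12 in the stretches) to 55.1 to 200.3 and 54.6 to 199.6 CPM. Within the latter list Mylk, a myosin kinase of mural cells, was lower in Sst-neurons over both treatments, like Bcl6, Etv5 and Hes1 (log2 fold change -6.80 ± 1.33, adjusted p = 0.0118), with 0 or 1 count in each Sst-neuron library and 3 to 190 counts in each Thy1-neuron library. Of the 7 list genes tested there, 4 had negative and 3 positive values, the latter being Cldn5 (4.13 ± 2.37), Jam2 (3.72 ± 1.99) and Adamts1 (0.42 ± 0.73), and Mylk alone was called. The part of such cells in the levels of these 3 factors was not tested. Of 9 neural progenitor markers, 0 lay in the stretches.

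The nicotine comparisons asked what nicotine changed within each cell type. In Sst-neurons 0 of 6689 entries and so 0 of the 5 factors were called (0% of entries, with 4.19% at an unadjusted p under 0.05 and DESeq2 calling 18). Zbtb20 had the smallest p of the factors, with all Sst+Nic libraries below all Sst libraries and a log2 fold change of -1.49 ± 0.52 (unadjusted p = 0.0232, adjusted p = 1.00). Bcl6 was likewise lower in each Sst+Nic library (-1.09 ± 1.44, unadjusted p = 0.472), and 20.8% of entries had libraries that did not overlap. The log2 fold changes were -1.75 ± 1.33 for Hes1, 0.17 ± 0.34 for Sox1 and -0.06 ± 0.40 for Etv5. Hes1 was at -3.09 without Sst+Nic replicate 3 and at -1.10 without Sst+Nic replicate 2, and Bcl6 at -2.004 and -0.57.

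In Thy1-neurons 0 of 6049 entries and 0 of the 5 factors were called (0% of entries, with 4.36% at an unadjusted p under 0.05 and DESeq2 calling 14). Hes1 was higher in each Thy1+Nic library than in both Thy1 libraries, with a log2 fold change of 1.04 ± 0.46 (unadjusted p = 0.0554, adjusted p = 1.00), while 20.9% of entries had libraries that did not overlap. Bcl6 had a log2 fold change of -0.57 ± 0.39, Etv5 one of -0.36 ± 0.42 and Zbtb20 one of 1.78 ± 1.65. The value of Zbtb20 was 0.78 ± 1.38 without Thy1 replicate 2 and, with 0 counts in the Thy1 library that remained, 8.61 ± 2.79 without Thy1 replicate 3 (adjusted p = 0.958 and 0.918). Without Thy1 replicate 3, the other values were 1.17 ± 0.74 for Hes1, -0.80 ± 0.56 for Bcl6 and -0.16 ± 0.56 for Etv5. Sox1, which alone had not passed the filter here and was kept as one of the factors, had counts in 1 of the 5 libraries.

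Whether nicotine acted differently on the cell types was tested as an interaction over all 10 libraries, subtracting the Thy1 change from the Sst change. No factor was called, and 0 of 8242 entries were (0%, with 7.34% of entries at an unadjusted p under 0.05 and DESeq2 calling 11). Hes1 (-2.78 ± 1.12, unadjusted p = 0.0284, adjusted p = 0.672) and Zbtb20 (-3.28 ± 1.45, unadjusted p = 0.0430, adjusted p = 0.672) were the 2 of the 5 under an unadjusted 0.05. Both values come from mean levels that were lower with nicotine in Sst-neurons and higher in Thy1-neurons. Without Thy1 replicate 3 the interaction of Zbtb20 was -10.34 ± 1.82 and was called (adjusted p = 0.0272) against 1 remaining Thy1 library with 0 counts, assumed to vary like the other groups, and that of Hes1 was -2.87 ± 1.41 (unadjusted p = 0.0514). Sox1 (-4.92 ± 2.47), Bcl6 (-0.53 ± 0.72) and Etv5 (0.27 ± 0.60) had adjusted p-values of 0.701, 0.9504 and 1.00, and the size of the Sox1 value again depends on libraries with 0 counts.

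**Figure D4:**
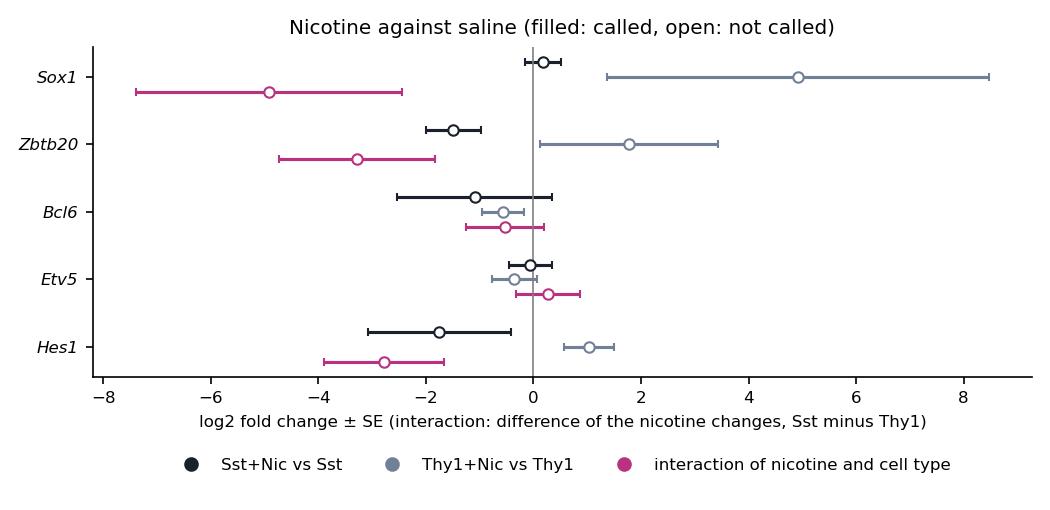
log2 fold change with its standard error of each factor by nicotine in each cell type, and the interaction, the difference of these changes (Sst minus Thy1); open points were not called. None of these values was called, and the intervals of Sox1 and Zbtb20 in Thy1-neurons are wide because the Thy1 libraries held few or 0 counts.

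The pathways around these factors could be read only in part. Of 61 Notch pathway genes, 2 lay in the well-filled stretches, Hes1 and Bcl6 themselves, and of 17 SOX genes 1, Sox1. Of the list of fibroblast growth factor receptor, MAP kinase and ETS factor genes, Gabpa, an ETS factor like Etv5, was not called under saline (log2 fold change 2.32 ± 0.77, adjusted p = 0.202). Of 44 ZBTB genes, Hic2 and Zbtb11 were the ones in the stretches besides Bcl6 and Zbtb20, and neither was called under saline (adjusted p = 0.158 and 0.189). Of 46 cortical neuron identity factors, 0 lay in them.

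Among 37 other transcription regulators in the well-filled stretches, 26 were tested under saline and 0 were called (4.29% of well-filled entries were), with a median log2 fold change of 0.07 against 0.05 over all entries. Over both treatments 28 were tested and 3 were called, a share near the 11.2% of all well-filled entries, so that the count is no result about these regulators. The 3 were Bach1, a repressor of oxidative stress genes (3.47 ± 0.66, adjusted p = 0.00851), Polr2h, an RNA polymerase subunit (-1.06 ± 0.28, adjusted p = 0.0471), and Brms1, a corepressor (-1.53 ± 0.39, adjusted p = 0.0424).

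Pearson correlations of log2(CPM + 1) over the 10 libraries named the 3 entries most like each factor among 538 others in the well-filled stretches with at least 10 counts in 2 libraries. These are descriptions, since the libraries share depth and split into 2 cell types. Sox1 was most like Gm3375 (r = 0.99), Dgkg, a diacylglycerol kinase (0.98), and Mir568 (0.98). Zbtb20 was most like Nmral1 (0.91), Grik1, a kainate receptor subunit listed here as an interneuron marker (0.90), and Myo16 (0.87). Bcl6 was most like Dlg1, a synaptic scaffold (0.97), Plcxd2 (0.97) and Rin1 (0.97). Etv5 was most like Tekt5 (0.95), Dlg1 (0.94) and Gm4262 (0.94). Hes1 was most like Kbtbd11 (0.91), Rpl35a, a ribosomal protein (0.90), and Gap43, a growth cone protein (0.86). With Spearman's rho, 0 of the 3 were the same for Sox1 and Zbtb20, 1 for Bcl6 and Etv5 and 2 for Hes1.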

How the data were processed

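Neurons were lysed, amplified and sequenced per mouse. The authors aligned the reads to GRCm38, and the submitters' processing notes name TopHat and HTSeq; the deposited table holds fragment counts per gene entry without normalization. Versions, annotation and strand setting are not given in the sources used here, so reads of antisense or overlapping genes cannot be told apart. Columns were matched to samples by the labels. The group values accompanying the study were used to find stretches of the genome that were not emptied of counts and to check the entries of the factors in Sst. Genes compared within the stretches held between 30.8% and 119% of those values, 15 of 42 being within 1% on chromosome 16 and 8 of 9 on chromosome 8. The rule bounded this range, since a stretch ended at the first gene that fell too far from its value. Most entries in the stretches were not compared one by one. This rule, the members and the gene lists were chosen with earlier results of these data known.

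Counts were tested with edgeR 4.0.16 in R 4.3.3 (TMM, filterByExpr with a minimum count of 10, glmQLFTest), factors with a count being kept. Pairwise fits used the libraries of the 2 groups, and the interaction all 10. Standard errors were the log2 fold change over the root of the F statistic. Alternatives were DESeq2 1.42.0, limma 3.58.1 voom with quality weights, other size factors, filters and entries, a shared fit of all groups, a block for the replicate number, the p-value threshold alone, and leaving out libraries in turn. Named genes were the 5 factors, the 3 entries most like each, RefSeq neighbours, cell type markers and called list genes, of which 1 is not reported here. Positions and promoters came from RefSeq and exon lengths from GENCODE. Wilson intervals at 95% and limits of 3 counts cover counting error only. Replicates of a group differed by more than sampling noise (chi-square per degree of freedom 34.4 to 89.3). Python 3.11.15 was used for levels.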

Additional observations from a re-analysis of the deposited data

How the results depend on the processing

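The factors' differences between cell types had the same sign under every alternative run; calls did not. Under saline, 3 factors and 109 entries were called, and 1 to 3 factors and 33 to 55 entries with 1 library left out. The entries called were 563 with DESeq2, 454 with no filter on low counts, 266 with at least 10 counts in a library and 33 with entries of the well-filled stretches alone; the first 3 of these settings called 4 factors. After nicotine, where 1 factor and 33 entries were called, the respective counts were 3 factors and 508 entries, 4 and 356, 4 and 275, and 2 and 17, and voom gave 0 and 65 and all libraries in 1 fit 2 and 105; leaving out 1 library gave 0 to 3 factors and 0 to 56 entries. For nicotine in Sst-neurons, DESeq2 called 18 entries and no filter 8; in Thy1-neurons DESeq2 called 14, no filter 13 and at least 10 counts in a library 7; for the interaction these 3 called 11, 36 and 27, and leaving out 1 library called 0 to 5 entries and 0 to 1 factors. The cause of these shifts was not tested. The sign of Etv5 by nicotine in Sst-neurons (-0.06) turned with totals without TMM (0.11), with well-filled entries alone (0.012) and with the replicate block (0.16), and lay between -0.45 and 0.21 with 1 library left out; that of Sox1 lay between -0.031 and 0.36. In the interaction, leaving out 1 library gave -0.074 to 0.68 for Etv5 and -5.53 to 0.17 for Sox1. The values of Hes1 then lay between -4.10 and -2.11, those of Bcl6 between -1.42 and -0.00019 and those of Zbtb20 between -10.34 and -2.25. Replicate numbers do not pair mice here, and deviations of same-numbered libraries correlated between -0.0831 and 0.0228; with the replicate block, 59 entries and 3 factors were called under saline and 9 entries and 1 factor after nicotine, that 1 being Sox1 in place of Bcl6. Depth limits statements on Sox1 and Zbtb20 in Thy1-neurons, where libraries held 0 counts, and 2 libraries in a group limit all tests.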

Other observations

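The nearest entries on either side of each factor were also compared between the cell types. Dgkg, the next entry 27.0 kb from Etv5, was higher in Sst than in Thy1 (1161 against 232 CPM, log2 fold change 2.15, adjusted p = 0.00970), whereas Etv5 was lower. Tra2b, a splicing factor on the other side of Etv5, was not called (581 and 352 CPM, adjusted p = 0.567), and neither was Tubgcp3, a tubulin nucleation gene next to Sox1 (48.3 and 114 CPM, adjusted p = 0.289). Mir568, 6.26 kb past the RefSeq end of Zbtb20, had 5.26 CPM in Sst and 9.52 in Sst+Nic and 0 counts in all Thy1-neuron libraries, the direction of Zbtb20 (adjusted p = 0.206 under saline and 0.0485 over both treatments). Gap43, the neighbour of Zbtb20 on the other side, was lower in Sst-neurons over both treatments (log2 fold change -1.27, adjusted p = 0.000684). The neighbours of Hes1 and Bcl6 had means of at most 4.65 CPM in each group. Whether neighbours and factors share regulation was not tested.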
